A study of Mus musculus with 12 samples.

Results

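Goblet cell products are the proteins that make up, process and accompany intestinal mucus, and 7 of the 46078 genes in the count files were taken as members by name: Muc2, Tff3, Clca1, Fcgbp, Agr2, Spink4 and Zg16. All 7 were found by Ensembl identifier through the GENCODE M21 annotation, and all 7 were among the 15823 genes with enough counts to be tested. RNA was sequenced from scrapings of proximal ileal epithelium of male C57BL/6 mice that were gavaged with sesame oil vehicle or with 3, 10 or 30 µg/kg TCDD, a persistent dioxin and ligand of the aryl hydrocarbon receptor (AhR). Dosing was repeated every 4 days for 7 administrations over 28 days, and the mice were 28 days old at first and 56 days old when the study ended. All groups shared strain, sex, oil gavage and schedule. Each group held 3 libraries that the series describes as biological replicates, 12 in all. A scraping holds every epithelial cell type together with cells carried along with it.

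Goblet cells are secretory cells of the intestinal epithelium that store mucin in granules and release it onto the surface. The transcription factor Atoh1 commits progenitors to the secretory lineage, and Spdef drives the maturation of goblet and Paneth cells. Secreted mucus hydrates into a layer that keeps bacteria and food particles away from the epithelium.

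The members differ in role. Muc2 is the gel-forming mucin itself, and Fcgbp is a large mucus protein that binds the Fc part of immunoglobulin G. Clca1 is a secreted metalloprotease that processes mucus. Agr2 is a protein disulfide isomerase family member of the endoplasmic reticulum needed for mucin production. Tff3 is a trefoil peptide involved in epithelial repair, Zg16 is a lectin that binds bacterial cell walls, and Spink4 is a Kazal-type protease inhibitor. In GENCODE M21 (GRCm38) all 7 are protein-coding. Muc2 lies at chr7:141690340-141754693 (plus strand), Fcgbp at chr7:28071236-28120862 (plus) and Zg16 at chr7:127050156-127087328 (minus). Agr2 lies at chr12:35992907-36004087 (plus), Tff3 at chr17:31125306-31129646 (minus), Clca1 at chr3:145003817-145032776 (minus) and Spink4 at chr4:40920052-40931395 (plus).

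Libraries held between 11695887 and 22180274 gene counts, and the lowest count of any member in any library was 608. Levels are given as CPM, counts scaled to a common library total after TMM correction for differences in composition. Enterocyte markers were abundant, summing to between 34919.8 and 53973 CPM over 10 genes, as the tissue label has it. The AhR target Cyp1a1 rose by 7.01 on the log2 scale at 30 µg/kg (edgeR, adjusted p = 2.31e-05), which checked the label of that dose only. At 3 µg/kg its change of 1.74 ± 0.46 (log2, SE) was not called (edgeR, adjusted p = 0.208). The 7 members together summed to between 12739.5 and 16670.3 CPM in vehicle, a mean of 1.48% of the counts, and to between 16396 and 17825 CPM at 30 µg/kg, a mean of 1.73%.

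Of the 7 members, Tff3, Agr2, Spink4 and Zg16, were higher at 30 µg/kg than in vehicle, by 1.76-fold to 1.99-fold (4 members), whereas no call was made for Muc2, Clca1 and Fcgbp. A gene was called when its edgeR quasi-likelihood p, adjusted by the Benjamini-Hochberg method over all genes tested, fell below 0.05 with a fold change of 1.5 or more. The 4 of 7 members stand beside 3.97% of all genes called at 30 µg/kg, and 3.08% called higher. The members had been chosen with earlier results of these data known. At 3 µg/kg, 0 members were called beside 0.228% of all genes, and at 10 µg/kg 0 members beside 0.613%. By edgeR, 3 members had an unadjusted p under 0.05 at each of these doses; DESeq2 called 1 and 0 of them, and limma-voom called 0 at both. The median log2 change of the members was -0.18, 0.09 and 0.82 in order of rising dose, beside -0.02 over all genes tested at the highest.

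Among the gel components, Muc2 was measured at 3819, 4119 and 3154 CPM in vehicle, 3761, 3113 and 2864 CPM at 3 µg/kg, 3844, 4210.4 and 3731 CPM at 10 µg/kg, and 4267, 4489 and 4559.7 CPM at 30 µg/kg. All libraries of 30 µg/kg lay above all vehicle libraries, but the gap was small. Muc2 differed from vehicle by 0.26 ± 0.13 (log2, SE; edgeR adjusted p = 0.28) at the highest dose, and the 95% interval ran from -0.05 to 0.57. Fcgbp was measured at 8483, 9803 and 7481 CPM in vehicle, 9499.6, 6885 and 6302 CPM at 3 µg/kg, 7598, 7811 and 7488 CPM at 10 µg/kg, and 8420.2, 9335 and 9243 CPM at 30 µg/kg. Each dose overlapped vehicle, and the interval of the log2 change at 30 µg/kg ran from -0.31 to 0.44. Clca1 was measured at 855, 904 and 755 CPM in vehicle, 1137, 786 and 841 CPM at 3 µg/kg, 836, 923 and 1030.2 CPM at 10 µg/kg, and 874, 855 and 838 CPM at 30 µg/kg. The 3 libraries of 30 µg/kg fell inside the vehicle range, and the interval of the log2 change ran from -0.29 to 0.35. A rise of 1.5-fold, which is 0.58 on the log2 scale, lay outside the intervals of Fcgbp and Clca1 and just outside that of Muc2.

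Agr2, the folding enzyme, was measured at 82.6, 101 and 88.5 CPM in vehicle, 93.0, 113 and 124 CPM at 3 µg/kg, 136, 118 and 146 CPM at 10 µg/kg, and 175, 156 and 148 CPM at 30 µg/kg. Its group means rose with each dose, from 90.6 ± 9.23 CPM (SD, n = 3) in vehicle through 109.7 ± 15.5 and 133 ± 13.8 CPM to 159.6 ± 13.7 CPM, and the libraries of 10 µg/kg already lay above all vehicle libraries. Against vehicle Agr2 changed by 0.56 ± 0.12 at 10 µg/kg (log2, SE; adjusted p = 0.0727 in edgeR), and the change at 30 µg/kg was 0.82 ± 0.12 (0.00184). Neighbouring doses were not separated, since the steps from 3 to 10 µg/kg and from 10 to 30 µg/kg had adjusted p of 1.00 and 0.248 in edgeR.

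Tff3, the trefoil peptide, was measured at 368, 389 and 284 CPM in vehicle, 405, 347 and 331 CPM at 3 µg/kg, 364, 356 and 446 CPM at 10 µg/kg, and 618, 661 and 661 CPM at 30 µg/kg. The vehicle, 3 and 10 µg/kg libraries overlapped, and the 3 libraries of 30 µg/kg stood above all of them. Tff3 rose by 0.90 ± 0.13 (log2, SE; edgeR adjusted p = 0.00166) at the highest dose, from a mean of 347 ± 55.9 CPM in vehicle to 647 ± 24.7 CPM (SD, n = 3).

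Zg16, the lectin, and Spink4, the protease inhibitor, followed another course. Zg16 was measured at 1246, 1268 and 911 CPM in vehicle, 876, 759 and 647 CPM at 3 µg/kg, 785, 787 and 883 CPM at 10 µg/kg, and 1866, 2179.8 and 2107 CPM at 30 µg/kg. Spink4 was measured at 84.9, 86.2 and 66.4 CPM in vehicle, 45.8, 66.0 and 63.2 CPM at 3 µg/kg, 56.5, 57.0 and 66.0 CPM at 10 µg/kg, and 175, 148 and 149.5 CPM at 30 µg/kg. For both genes every library of 3 and 10 µg/kg lay below every vehicle library, and every library of 30 µg/kg lay above. The lower values at 3 µg/kg, with log2 changes of -0.59 ± 0.15 (SE) for Zg16 and -0.44 ± 0.14 for Spink4, had adjusted p of 0.186 and 0.292 in edgeR. Zg16 at 3 µg/kg was called lower by DESeq2 (adjusted p = 0.0149), without a filter on low counts (0.0333) and without replicate 1 of that dose (0.0425), a library that also had the lowest short-gene levels. At 30 µg/kg the log2 changes against vehicle were 0.84 ± 0.15 for Zg16 (adjusted p = 0.00435) and 0.99 ± 0.14 for Spink4 (0.00153). The gene Zg16 has 2 annotated antisense neighbours, 1 with 0 counts and 1 not in the count files.

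Of the 7 members, 5 had all libraries of 30 µg/kg above all vehicle libraries, a pattern met by 14.2% of all genes tested. At 10 µg/kg 1 member lay wholly above vehicle, beside 11.9% of all genes, and 2 wholly below, beside 11%. At 3 µg/kg 2 lay wholly below, beside 6.84%.

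**Figure D1:**
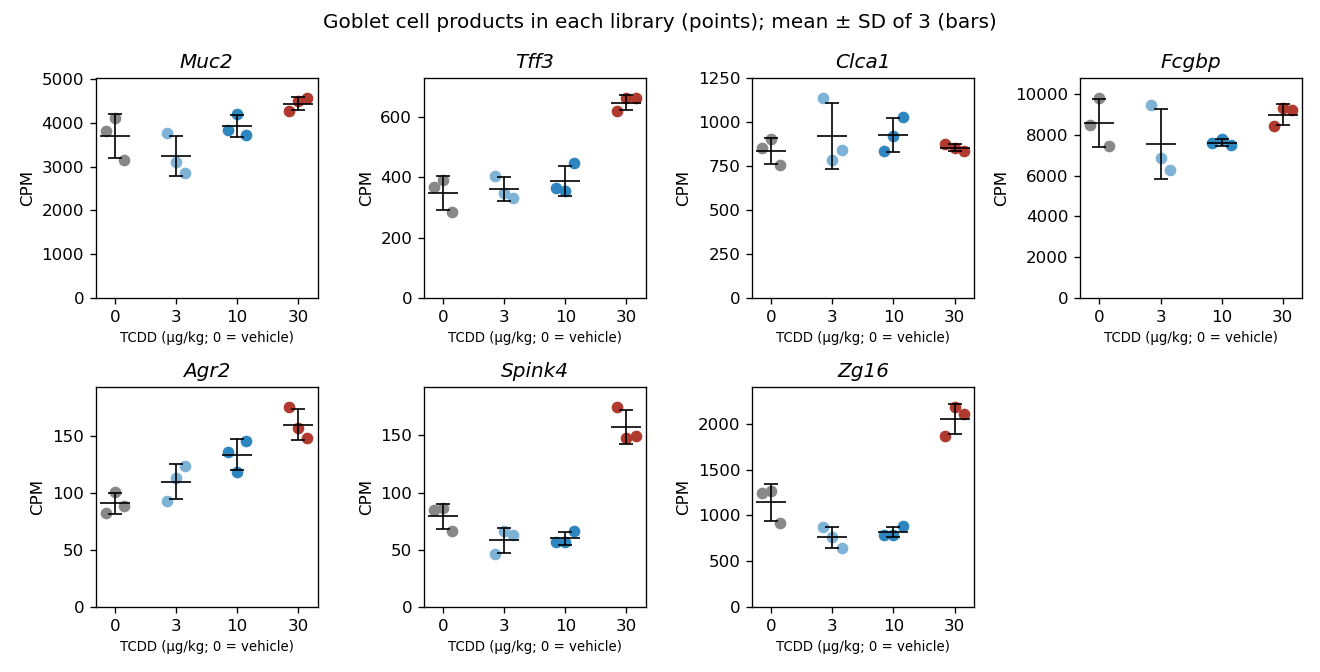
Level of each goblet cell product (y axis, CPM) in the 3 libraries of each dose (x axis, µg/kg TCDD, 0 being vehicle), with points for libraries and bars for mean ± SD. Tff3, Spink4 and Zg16 stand apart at 30 µg/kg, where Zg16 lies between 1866 and 2179.8 CPM, Agr2 climbs over the doses, and Clca1 and Fcgbp overlap vehicle at every dose.

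The comparison of 30 with 10 µg/kg asked where along the doses the levels separated. Of all genes tested, 2.77% were called and 2.17% were called higher. Of the members 3 were called, all higher: Spink4 by 2.63-fold (adjusted p = 0.000209, edgeR), Zg16 by 2.51-fold (0.000327) and Tff3 by 1.67-fold (0.00883). The Tff3 call did not hold without replicate 2 of 10 µg/kg, where its adjusted p was 0.0518. Between 3 and 10 µg/kg, 0 members were called in edgeR, DESeq2 and limma-voom, with 1 member at an unadjusted p under 0.05 in edgeR, beside 0.158% of all genes called.

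A slope over the rank of the 4 doses called 3.29% of all genes and 2 members, Agr2 and Tff3. Over the full range the fitted log2 rise was 0.82 ± 0.11 (SE) for Agr2 (adjusted p = 0.00104) and 0.85 ± 0.17 for Tff3 (0.00987). With each library's trend over exon length and GC content removed, the Tff3 slope came to 0.31 ± 0.11 (adjusted p = 0.133, edgeR) and was not called. Spink4 and Zg16, which were lowest at 3 and 10 µg/kg, had adjusted p of 0.108 and 0.171 for the slope. When the 4 groups were tested for any difference, an adjusted p under 0.05 was reached by 6.78% of all genes and by Tff3, Agr2, Spink4 and Zg16. Tff3 did not reach it after the same trend removal (adjusted p = 0.337, edgeR).

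**Figure D2:**
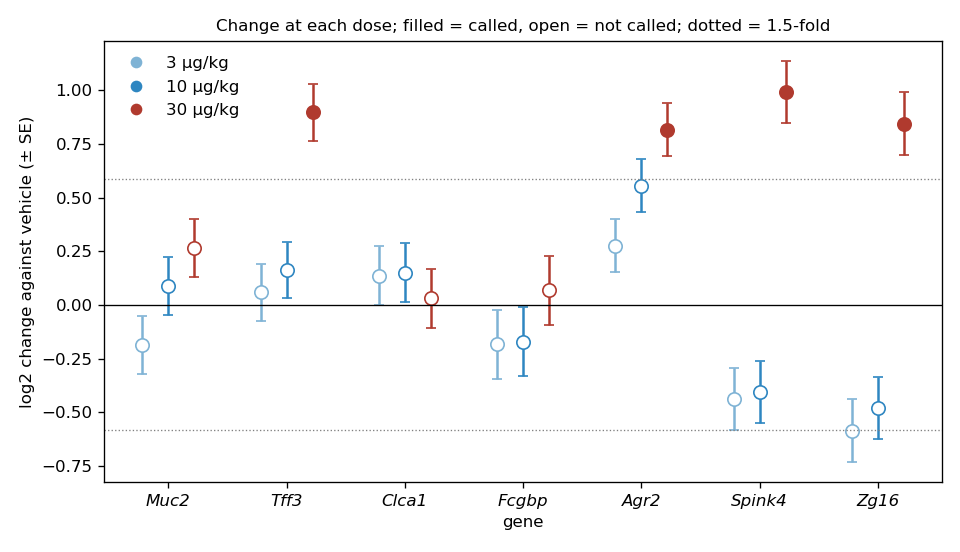
Log2 change against vehicle (y axis, ± SE from edgeR) of each product (x axis) at 3, 10 and 30 µg/kg, with filled points for calls and dotted lines at 1.5-fold. The filled points are Tff3, Agr2, Spink4 and Zg16 at 30 µg/kg, between 0.82 and 0.99, and no point at the lower doses is filled.

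Because the members were read from whole scrapings, more goblet cells and more RNA of these genes per cell cannot be told apart. Ratios within a library do not depend on its total, and were therefore taken to Muc2. Zg16 counts per Muc2 count were 0.326, 0.308 and 0.289 in vehicle and, by rising dose, 0.233, 0.244 and 0.226, then 0.204, 0.187 and 0.237, and finally 0.437, 0.486 and 0.462. Tff3 per Muc2 was 0.0963, 0.0946 and 0.0899 in vehicle and 0.145, 0.147 and 0.145 at 30 µg/kg. Among vehicle libraries the ratios varied less than the levels for every member but Agr2 (13.1% against 10.2%): the coefficient of variation was 3.5% for Tff3 per Muc2 against 16.1% for Tff3 CPM, and 3.85% against 13.6% for Fcgbp. This did not hold in every group, since the ratio varied less than the level for 4 of 6 members at 3 µg/kg, 0 of 6 at 10 µg/kg and 3 of 6 at 30 µg/kg. Vehicle replicate 3 had the lowest CPM of its group for 6 of the members, all but Agr2.

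The change relative to Muc2 was tested with every library scaled to its Muc2 counts, a setting chosen after seeing the data, under which the median of all genes at 30 µg/kg moved to -0.29. Tff3 (0.64 ± 0.14, SE, adjusted p = 0.0139, edgeR) and Spink4 (0.73 ± 0.19, 0.0291) stayed called, beside 7.51% of all genes called in either direction. Zg16 passed the p threshold (0.58 ± 0.13, 0.015) but fell just short of 1.5-fold, and Agr2 (0.55 ± 0.19) had an adjusted p of 0.0718. Clca1 and Fcgbp turned to -0.24 ± 0.14 and -0.20 ± 0.12, with adjusted p of 0.241 and 0.279. From 10 to 30 µg/kg, Spink4 and Zg16 remained called relative to Muc2, at 1.22 ± 0.19 and 1.14 ± 0.13, beside 236 of 15823 genes called. Scaling to Muc2 did not remove the trend over exon length and GC content. With that trend removed instead, Tff3 (0.34 ± 0.12) and Spink4 (0.42 ± 0.13) were not called at 30 µg/kg against vehicle.

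**Figure D3:**
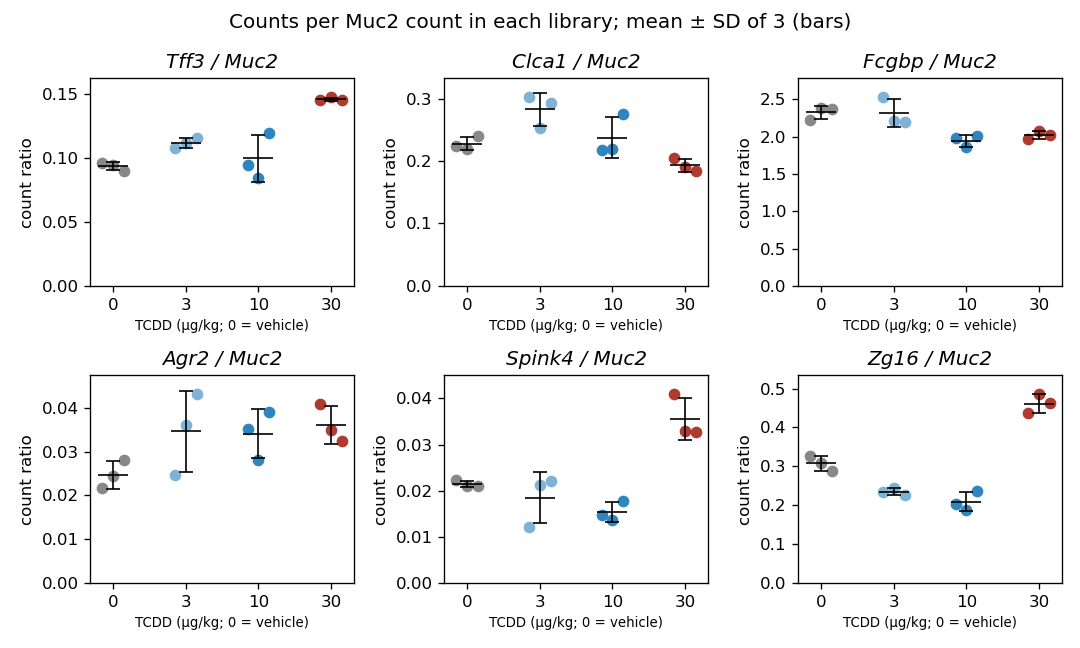
Counts of each product per Muc2 count (y axis) in the 3 libraries of each dose (x axis, µg/kg TCDD, 0 being vehicle), with points for libraries and bars for mean ± SD. Zg16 per Muc2 lies between 0.187 and 0.244 at 3 and 10 µg/kg, below vehicle, and between 0.437 and 0.486 at 30 µg/kg, while Clca1 per Muc2 does not rise at 30 µg/kg.

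The members called at 30 µg/kg are the 4 with the shortest transcripts. Exon length was 477 nt for Spink4, 493 nt for Tff3, 1257 nt for Zg16 and 1291 nt for Agr2, against 3777 nt for Clca1, 7127 nt for Muc2 and 10497 nt for Fcgbp. Short genes as a class were higher at 30 µg/kg. The 86 protein-coding genes of 300 to 600 nt had a median log2 change of 1.17, the 1364 genes of 1000 to 2000 nt one of 0.17, and the 2439 genes of 8000 nt or more one of -0.08. Spink4 and Tff3 lay under the median of their length class, where 58.8% and 62.4% of the genes had a larger change. Zg16 and Agr2 lay high in theirs, where 7.92% and 8.36% had a larger change, and Muc2, at 7127 nt, was exceeded by 16.6% of its class.

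With each library's trend over exon length and GC content removed, 3.29% of all genes and 2 members remained called at 30 µg/kg. Agr2 changed by 0.61 ± 0.12 (SE, adjusted p = 0.0143, edgeR) and Zg16 by 0.60 ± 0.14 (0.0254). The changes of Spink4 and Tff3 came to 0.42 ± 0.13 (0.0947) and 0.34 ± 0.12 (0.133), and neither was called. From 10 to 30 µg/kg, where 1.88% of all genes were then called, Zg16 (1.12 ± 0.14) and Spink4 (0.81 ± 0.13) stayed called, and Tff3 (0.14 ± 0.12) did not. The length trend set all 3 libraries of 30 µg/kg apart. Short genes there deviated from their mean over the 12 libraries by a median of 0.66 to 0.80 (log2), against -0.68 to 0.08 elsewhere. Libraries of 3 and 10 µg/kg overlapped vehicle in this value, and replicate 1 of 3 µg/kg had the lowest. Entries matching no gene were at most 25.4% of all entries at 30 µg/kg and 28.0% to 30.1% in the other groups. All entries include reads aligned to more than 1 place, whose share was higher at 30 µg/kg. The part of these library differences in the members' changes was tested only through the trend removal, and dose and any batch aligned with it cannot be told apart.

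**Figure D4:**
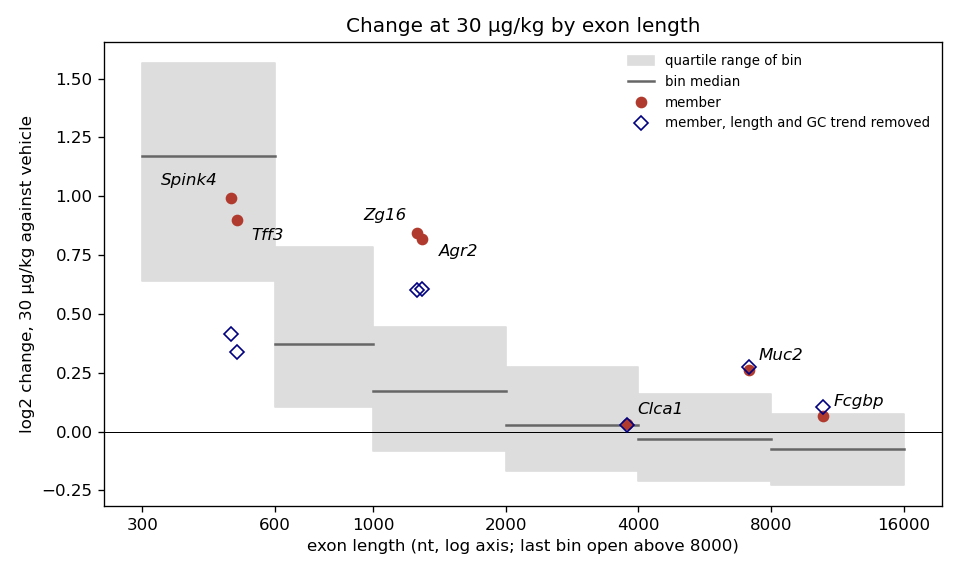
Log2 change at 30 µg/kg against vehicle (y axis) by exon length (x axis, nt, log scale), with grey boxes for the quartile range of protein-coding genes in a length class, lines for class medians, red points for the 7 products and open diamonds for the products after trend removal. Spink4 and Tff3 fall inside the box of the shortest genes, whose median is 1.17, and Zg16 and Agr2 lie above theirs.

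Levels of different genes were compared per kilobase of exon, since longer transcripts give more counts. In vehicle the order was Zg16 (908 ± 159 CPM per kb, SD, n = 3), Fcgbp (818 ± 111), Tff3 (704 ± 113), Muc2 (519 ± 69.3), Clca1 (222 ± 20.0), Spink4 (166 ± 23.3) and Agr2 (70.2 ± 7.15). The ranges of neighbours overlapped from Zg16 through Muc2, and did not overlap from Muc2 to Agr2. At 30 µg/kg the order was Zg16 (1631 ± 131), Tff3 (1312 ± 50.0), Fcgbp (857 ± 48.0), Muc2 (623 ± 21.4), Spink4 (329.9 ± 31.2), Clca1 (227 ± 4.82) and Agr2 (124 ± 10.6), with no overlap between neighbours. Tff3 and Spink4, which stand higher in this order than in that of vehicle, are the shortest members, and their changes were not called once the length and GC trend was removed. These orders rest on the annotated exon lengths.

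Of the 7 members, 3 matched the RefSeq promoter table, namely Muc2, Fcgbp and Agr2, and Tff3, Clca1, Spink4 and Zg16 did not. The upstream sequences of the matched members are shown, Agr2 being a member called at 30 µg/kg and the other two not. Each is the 250 bases before the RefSeq start on the plus strand of GRCm38.p6, 5′ to 3′, at chr7:141690090-141690339 for Muc2, chr7:28070986-28071235 for Fcgbp and chr12:35992675-35992924 for Agr2. Capitals mark matches on either strand to 3 motifs, chosen after the sequences were seen. The first was the E-box CAGCTG, of the kind that basic helix-loop-helix factors such as Atoh1 bind. The second was the start-site element TATAA. The third was GCGTG, the core of the dioxin response element bound by the AhR.

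Muc2: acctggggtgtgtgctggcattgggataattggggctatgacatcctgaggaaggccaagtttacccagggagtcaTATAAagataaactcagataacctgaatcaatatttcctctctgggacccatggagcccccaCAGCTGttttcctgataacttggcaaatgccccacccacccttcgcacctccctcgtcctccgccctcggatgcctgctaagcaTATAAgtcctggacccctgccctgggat

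Fcgbp: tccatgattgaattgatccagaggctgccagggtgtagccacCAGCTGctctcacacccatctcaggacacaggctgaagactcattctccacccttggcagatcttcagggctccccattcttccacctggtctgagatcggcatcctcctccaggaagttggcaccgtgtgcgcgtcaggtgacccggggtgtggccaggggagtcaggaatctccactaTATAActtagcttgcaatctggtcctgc

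Agr2: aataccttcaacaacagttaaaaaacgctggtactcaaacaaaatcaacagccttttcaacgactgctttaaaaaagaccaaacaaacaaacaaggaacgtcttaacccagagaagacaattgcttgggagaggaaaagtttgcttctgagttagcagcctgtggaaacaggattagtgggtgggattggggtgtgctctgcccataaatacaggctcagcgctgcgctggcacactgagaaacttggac

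Muc2 and Fcgbp each held 1 CAGCTG, from -112 to -107 and from -208 to -203 relative to the start, and a TATAA from -28 to -24, with another from -174 to -170 in Muc2. The Agr2 window held none of the motifs, and none of the 3 windows held GCGTG. Among 32851 mouse windows of the same length, 13% held CAGCTG, 22.8% held TATAA and 28.2% held GCGTG. No 2 of the 3 motifs overlapped in these windows.

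Genes around the products were followed in 7 lists of 86 genes in all, of which 74 were tested. At 30 µg/kg 3.97% of all genes were called, and 3.08% were called higher. Of the 74 list genes 10 were called, all higher, with a median log2 change of 0.25 over the lists. With libraries scaled to Muc2, 2 of these stayed called at 30 µg/kg (Ang4 and Klk1), 5 others were called lower (Dll4, Ero1lb, Galnt1, Il13ra1 and St3gal4, named after their values were seen), and the median was -0.02. These 7 of 74 stand beside 7.51% of all genes called under that scaling. At 10 µg/kg 2 were called, both higher, beside 0.613% of all genes. At 3 µg/kg 0 were called in edgeR, DESeq2 and limma-voom. In edgeR 8 had an unadjusted p under 0.05 at 3 µg/kg, and 0.228% of all genes were called.

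Among secretory lineage regulators, 3 of 13 tested rose at 30 µg/kg, beside 3.08% of all genes, and none fell, with a median of 0.28. Atoh1 was measured at 14.7, 19.9 and 17.8 CPM in vehicle and at 26.6, 28.3 and 30.6 CPM at 30 µg/kg, and rose by 0.71 ± 0.13 (log2, SE; edgeR adjusted p = 0.00513). Its levels at 3 and 10 µg/kg, from 14.5 to 19.0 CPM, overlapped vehicle, and the step from 10 to 30 µg/kg was called as well (0.62 ± 0.13, adjusted p = 0.0156), though not with the length and GC trend removed (0.50, under 1.5-fold) or with libraries scaled to Muc2 (0.44, adjusted p = 0.148, edgeR). Creb3l1, a membrane-bound transcription factor of secretory cells, changed by 0.76 ± 0.11 (0.0017), and Foxa3, a forkhead factor, by 0.68 ± 0.11 (0.00341). Spdef changed by 0.43 ± 0.14 and was not called (adjusted p = 0.095). The Foxa3 change fell to 0.58, just under 1.5-fold, after removal of the length and GC trend.

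Among other goblet marker genes, 6 of 15 tested rose at 30 µg/kg, beside 3.08% of all genes, with a median of 0.56. Ang4, an antimicrobial ribonuclease that Paneth cells also make, changed by 2.33 ± 0.28 (SE, adjusted p = 0.000362, edgeR). Ang4 is also counted among the Paneth markers below. Oit1, listed under its other name Fam3d and encoding a secreted cytokine-like protein, changed by 1.18 ± 0.27 (0.0215), Fxyd3, a regulator of the sodium pump, by 0.99 ± 0.19 (0.00807), and Klk1, a tissue kallikrein protease, by 0.94 ± 0.13 (0.000974). Sytl2, which docks secretory granules, changed by 0.66 ± 0.10 (0.00235), and Ccl6, a chemokine, by 0.65 ± 0.13 (0.0113). Klk1 and Fam3d were also called at 10 µg/kg, at 0.71 ± 0.13 (0.0261) and 1.35 ± 0.27 (0.0389). The Klk1 call at 10 µg/kg was lost with groups fitted alone (adjusted p = 0.0524, edgeR) and with libraries scaled to Muc2 (0.0984). That of Fam3d was lost with upper-quartile scaling (0.0509), groups fitted alone (0.0511) and at least 10 counts in every library (0.0517). It was also lost with libraries scaled to Muc2 (0.0865) and with read index as covariate (0.0919). Leaving out 1 library ended the Klk1 call at 10 µg/kg in 5 of 12 fits (vehicle replicates 2 and 3 and each library of 10 µg/kg), with adjusted p up to 0.121. For Fam3d it ended the call at 10 µg/kg in 8 of 12 fits (each vehicle library, replicates 2 and 3 at 10 µg/kg, the first and the second replicate at 30 µg/kg, and replicate 2 at 3 µg/kg), with adjusted p up to 0.195. The Fam3d call at 30 µg/kg was lost in 4 of 12 fits (vehicle replicates 2 and 3, and replicates 1 and 3 of 30 µg/kg), up to 0.0949, and Ccl6 dropped under 1.5-fold without vehicle replicate 3 (0.52) and with the length and GC trend removed (0.55), which left 8 of the 10 list genes called. Tff1 and Tff2, the trefoil peptides of the stomach, had 0 counts in all libraries.

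Of the mucin O-glycosylation genes, 1 of 20 tested rose at 30 µg/kg, beside 3.08% of all genes, with a median of 0.02. It was Galnt3, one of the transferases that start O-glycan chains, at 0.73 ± 0.13 (SE, adjusted p = 0.00437, edgeR). Other mucins (3 tested), mucin folding genes (8), granule exocytosis genes (9) and goblet-inducing cytokine signalling genes (6) had 0 calls at 30 µg/kg in edgeR, DESeq2 and limma-voom, with 1, 5, 3 and 1 genes at an unadjusted p under 0.05 in edgeR. Their medians were 0.36, 0.21, 0.26 and -0.14. The cell surface mucins Muc3, Muc4 and Muc13 were tested, whereas the gel-forming Muc5ac, Muc5b and Muc6 were too low.

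**Figure D5:**
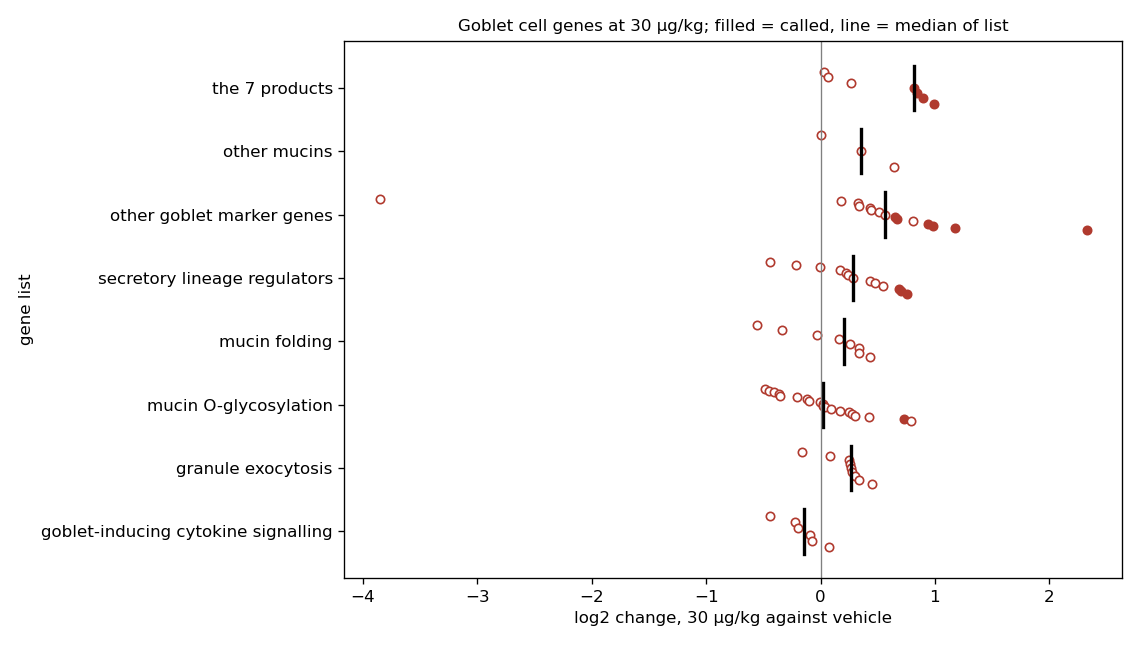
Log2 change at 30 µg/kg against vehicle (x axis) of each tested gene in the product list and the 7 related lists (y axis), with filled points for calls and black lines for list medians. The product list has a median of 0.82 and the O-glycosylation list one of 0.02, and every filled point lies above 0. These changes keep the trend over exon length and GC content, so lists of short and of long genes are not directly comparable.

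From 10 to 30 µg/kg, 7 of the 74 genes of these lists were called, beside 2.77% of all genes. Atoh1, Ang4, Fxyd3 and Guca2a were higher, and Gcnt1, Il13ra1 and Retnlb were lower; Guca2a, Gcnt1, Il13ra1 and Retnlb were named after their values were seen. Removal of the length and GC trend left 1 higher (Fxyd3) and 2 lower (Gcnt1 and Retnlb). With libraries scaled to Muc2, 0 list genes were called higher and 5 lower, beside 236 of 15823 genes called. These 5 include genes that were not called lower without that scaling. Retnlb, a goblet product known best from the colon, reached 0.61 to 1.01 CPM at 10 µg/kg, at most 0.41 CPM at 3 µg/kg and in vehicle, and 0 counts at 30 µg/kg. The colon enzyme Car1 lay between 43.7 and 62.1 CPM in the 3 libraries of 10 µg/kg and was at 0 CPM in the other 9, and the colon list of 5 genes summed to between 182 and 206 CPM at 10 µg/kg and at most 132 CPM elsewhere. The part of colon RNA in the members' levels at 10 µg/kg was not tested. The 6 stomach markers, with Gkn2 and Tff1 at 0, summed to at most 0.65 CPM in any library.

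Markers of Paneth and enteroendocrine cells were also higher at 30 µg/kg, where 3.08% of all genes were called higher. The marker values below keep the trend over exon length and GC content. In the edgeR fit, protein-coding genes of 300 to 600 nt had a median log2 change of 1.17 at that dose. Of 9 Paneth markers 8 were called higher, with a median log2 change of 1.76, and the list summed to between 764 and 1169.8 CPM in vehicle and between 2491 and 3415 CPM at 30 µg/kg, with no marker at 0. The Paneth sums lay between 773 and 1981 CPM at 3 µg/kg and between 1251 and 1677 CPM at 10 µg/kg, with 0 markers called at either dose by edgeR and limma-voom, 1 and 2 by DESeq2, and 7 and 6 at an unadjusted p under 0.05 in edgeR. Of 8 enteroendocrine markers 7 were called higher, with a median of 0.85, and their sum rose from between 134 and 145 CPM to between 218 and 251 CPM. At 3 and 10 µg/kg the enteroendocrine sums were 156 to 167 CPM and 159.5 to 192 CPM, all above vehicle, with 0 markers called in edgeR, DESeq2 and limma-voom, and 2 and 4 at an unadjusted p under 0.05 in edgeR. Of the 5 tuft cell markers 3 were tested and 0 were called at 30 µg/kg in edgeR, DESeq2 and limma-voom, with 2 at an unadjusted p under 0.05 in edgeR and a median log2 change of 0.12. These 3 did not share a direction in edgeR. Dclk1 was lower than vehicle, and Trpm5 and Pou2f3 were higher (named after their values were seen). The tuft list summed to between 30.4 and 41.8 CPM in vehicle and between 29.6 and 62.5 CPM at 30 µg/kg. Of 10 enterocyte markers 0 were called in edgeR, DESeq2 and limma-voom, with 0 at an unadjusted p under 0.05 in edgeR, and their median was 0.02. The share of Paneth cell RNA in the Ang4 and Atoh1 values was not tested.

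The 5 genes whose pattern over the 12 libraries was most like that of the members, among 8021 others with a mean of at least 10 CPM, were Ihh, Myl12b, Cdkn1a, Phgr1 and Aldh2. Likeness was Pearson's r with the mean of the members' standardised log2 CPM, and it ran from 0.92 for Aldh2 to 0.94 for Ihh, as a description over libraries that share doses and length trends. Ihh encodes the Indian hedgehog ligand and was measured at 80.6 ± 6.21 CPM (SD, n = 3) in vehicle and 100.1 ± 4.48 CPM at 30 µg/kg. Cdkn1a, which encodes a cyclin-dependent kinase inhibitor, was measured at 215 ± 19.1 and 316 ± 19.2 CPM. Of the members themselves, Tff3 had the highest r with that mean (0.95) and Clca1 the lowest (0.27). Each member is part of that mean, so these r are not comparable with those of the other genes.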

How the data were processed

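RNA-seq counts of 12 libraries, 3 per dose group, were analysed. The authors deposited unnormalised read counts for each Ensembl gene, with libraries made per the labels with an Ovation kit from total RNA with a further DNase step. The submitters' processing notes list Trimmomatic 0.33, TopHat2 2.1.0, HTSeq 0.6.1 and build GRCm38. The annotation release and strand setting are not given in the sources used here. Entries outside genes were 60.3% to 64.6% of all entries per library and stayed out of library sizes. Of 46078 genes, 45229 matched GENCODE M21, and sequences were those of RefSeq GRCm38.p6.

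Counts were fitted with edgeR 4.0.16 in R 4.3.3 (filterByExpr, TMM, 1 quasi-likelihood model with 4 groups, 15823 genes tested). Adjustment followed Benjamini and Hochberg over all genes tested. In simulated counts for the comparison of 30 µg/kg with vehicle, the script was tested for recovery of known changes. Intervals of log2 changes are 95% intervals from the SE with 8 residual degrees of freedom. Log2 CPM used a prior count of 2. Library depths were 11695887 to 22180274 gene counts, and 3 counts equal 0.139 to 0.266 CPM (counting error only). The labels assign groups by dose and give no replicate numbers, so replicates are numbered in accession order.

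The 7 members and the gene lists were chosen with earlier results of these data known. Named genes are the members, Atoh1 and Spdef, list genes called against vehicle, and the 5 genes most like the members. Alternatives were other scalings, filters, DESeq2 1.42.0, limma-voom 3.58.1, groups fitted alone, read index or a clock gene score as covariate, removal of length and GC trends, and each library left out. Smooth trends used a lowess span of 0.3.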

Additional observations from a re-analysis of the deposited data

Results flagged for a closer look

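Reads aligned to more than 1 place, which stay outside the gene counts, made up a mean of 37.7% of all entries at 30 µg/kg, with a range of 36.2% to 38.8%. All 3 libraries lay above the vehicle libraries, which held 32.5% to 34.6%. Libraries of 3 and 10 µg/kg held 31.4% to 34.2%. The part of these reads in the members' values was not tested.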

How the results depend on the processing

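At 30 µg/kg, 4 members were called in all 12 fits that left out 1 library, and under every scaling, filter, tool and covariate except 2 settings: 2 members remained called with the length and GC trend removed, and 2 with libraries scaled to Muc2. The trend over dose rank called 1 member in place of 2 with the length and GC trend removed. At 3 µg/kg 1 member (Zg16) was called without a filter on low counts and by DESeq2. With 1 library left out, members called ranged from 0 to 1 at 3 µg/kg, from 2 to 3 from 10 to 30 µg/kg, and from 4 to 5 for any difference. Of 1232 log2 changes under alternatives, 43 lost a call, 3 gained one, and 24 changed sign, all of them changes not called. Member levels under raw library totals stayed within 1 SD in all 28 cases.

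Counts of all genes called moved more. At 3 µg/kg they were 71 without a filter, 23 with at least 10 counts in every library, 84 by DESeq2, 6 with the groups fitted alone and 18 with read index as covariate, against 36. At 10 µg/kg they were 215, 262 and 59 without a filter, by DESeq2 and with read index, and 52 scaled to Muc2, against 97. Between 3 and 10 µg/kg they were 43 without a filter, 13 with at least 10 counts and 43 by DESeq2, against 25. Scaling to Muc2 gave 1189 at 30 µg/kg (628) and 236 from 10 to 30 µg/kg (439). For any difference they were 636 with read index, 2068 with the clock score and 3542 scaled to Muc2, against 1073. With 1 library left out they ranged from 19 to 162 at 3 µg/kg (highest without replicate 1 of that dose), 45 to 198 at 10 µg/kg, 433 to 768 at 30 µg/kg, 9 to 27 between 3 and 10 µg/kg, 188 to 543 from 10 to 30 µg/kg, 297 to 640 for the trend and 562 to 1745 for any difference.

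No paired analysis was possible because the labels give no replicate numbers. Each of the 3 read indexes occurs once in every group, and with read index as a covariate the counts of members called were as in the text for all 7 tests. The trend was not run by DESeq2, limma-voom, groups fitted alone or Muc2 scaling. Groups of 3 libraries and the shared length shift at 30 µg/kg limit what the changes of short members can show.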
